A study of Arabidopsis thaliana with 24 samples.

Results

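The comparison described here is that of flu seedlings after 30 min of light with flu seedlings in the dark. It takes 4 of the 24 Affymetrix arrays of the study, 2 for flu in the dark and 2 for flu after 30 min, chosen by genotype and time as the sample titles give them. All 22217 probe sets of the deposited table were measured on every array. The seedlings were whole, 4 days old and of the Col-0 ecotype. Seeds were kept cold and dark at 4 °C for 4 days, given 2 h of light at 22 °C to start germination, and then grown for 4 days in the dark. The light was 120 µmol m-2 s-1 at 22 °C. The wild type (wt) and the mutants fc2 and fc1, grown and lit in the same way with 2 arrays per genotype and time, serve for comparison. The labels call the replicates biological and say nothing of separate plates or sowings, so p-values measure only how much these arrays vary, and their small number sets the precision. The allele of flu was not given in the labels. No probe set named FLU, FC1 or FC2 alone, so the genotype labels were not checked against the targeted genes.

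FLU is a plastid protein that holds back the first committed step of tetrapyrrole synthesis, the pathway to chlorophyll and haem, in the dark. Seedlings that lack it accumulate protochlorophyllide, a chlorophyll precursor that passes energy to oxygen when lit and so produces singlet oxygen inside the plastid. The EXECUTER proteins of the plastid are known to be needed for much of the nuclear response to singlet oxygen in flu. The first light also starts de-etiolation, in which phytochromes and cryptochromes turn an elongating pale seedling into a green one.

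Within 30 min of light, transcripts for photosynthesis and chlorophyll synthesis fell in flu, as did several of cell wall extension, while the stress factor genes STZ and WRKY53, the U-box ubiquitin ligase genes PUB19, PUB23 and PUB24, the auxin-conjugating GH3.3, WES1 and GH3.17 and the autophagy genes APG8A, ATG8B, ATG8D, ATG8G and APG8H rose. The zinc-finger gene STZ rose 7.16-fold, and AT3G05730 had the largest named fall. Changes are given as log2 differences ± SE from a limma fit over all 24 arrays (n = 2 arrays per group), and a probe set was called where the Benjamini-Hochberg adjusted p over all probe sets was under 0.05. By this rule 10677 probe sets changed, or 48.1% of those tested, with 5384 higher (24.2%) and 5293 lower (23.8%). Of these, 2349 changed at least 2-fold (10.6%), 844 upwards and 1505 downwards. In wt the same 30 min changed 1425 probe sets (6.41%), in fc2 672 (3.02%) and in fc1 1605 (7.22%). The median size of the log2 change over all probe sets was 0.325 in flu and 0.125 in wt.

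The arrays of flu after 30 min stood apart in their spread. The SD of their log2 signals was 2.318 and 2.277, the lowest 2 of the 24 arrays, against 2.347 and 2.405 in dark flu. The median change of dim probe sets was upwards and that of brighter ones downwards, from 0.185 in bin 3 to -0.155 in bin 6 of 10 bins of probe sets ordered by mean level. In wt these medians lay between -0.05 and 0.005. With the array spread as a covariate 6204 probe sets were called, 5507 of them also called in the same direction without it, and after cyclic loess normalization, chosen after seeing the data, 10211 were called. The replicates of each group correlated at 0.9957 in dark flu and 0.992 after 30 min, across probe sets. The mean log2 level of the 2 reference genes used for scaling, AT4G34270 and AT2G28390, was 7.7 and 7.84 in dark flu and 7.52 and 7.49 after 30 min. Of these, AT2G28390 was itself called lower (-0.39). PEX4, a measured reference gene not used for scaling, moved the other way (0.25). It was not called, but was called higher with quantile normalization (0.29, limma adjusted p = 0.0242). Scaling to AT4G34270 and AT2G28390 gave a median change over all probe sets of 0.33 in place of 0.06. Higher calls then made up 76.2% of the total in place of 50.4%. Calls under this scaling rest on the choice of these genes. Directions below are therefore relative to the bulk of the probe sets.

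**Figure D1:**
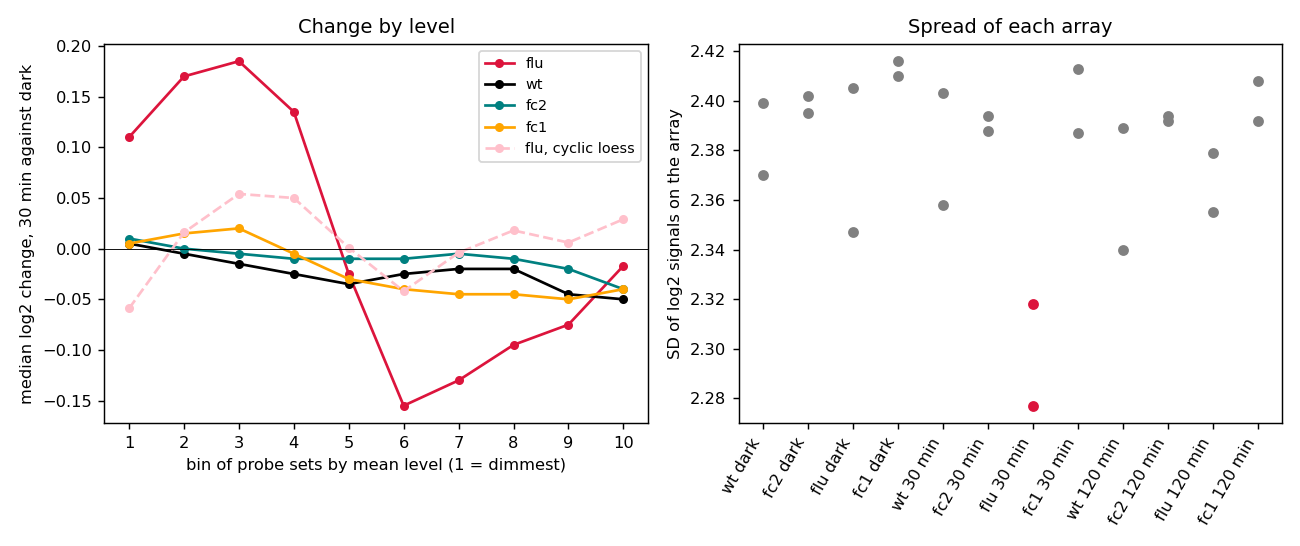
Left, median log2 change after 30 min of light (y axis) in 10 bins of probe sets ordered by mean level (x axis, 1 = dimmest), 1 line per genotype, with flu after cyclic loess normalization dashed. Right, SD of the log2 signals of each array (y axis), 2 points per group, where both flu arrays at 30 min (2.318 and 2.277, red) lie lowest.

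Marker genes of other tissues and of seeds were read on the same arrays. Measured, here and below, means having 1 of the 13171 probe sets with exactly 1 listed gene. A list member without one may still be on the array, among the probe sets with none or several listed genes. The mean log2 level of 4 measured seed maturation and storage genes, of 16 in the list, was 8.71 and 8.48 in dark flu and 9.28 and 9.02 after 30 min. It was also higher in lit wt, at 8.14 and 7.36 in the dark and 8.54 and 8.79 after 30 min. Among the 4 genes OLEO3, an oil-body protein gene, fell in flu (-1.59 ± 0.12, adjusted p = 2.21e-08). M10 was called higher (1.73 ± 0.59, adjusted p = 0.0227), but not with trend and robust variances (adjusted p = 0.0584), with the array spread as a covariate (1.31, adjusted p = 0.269) or without any 1 of the 4 flu arrays (adjusted p = 0.0507 to 0.11). Of 3 measured root and root hair genes, of 10, EXPA7 (0.63) and EXPA18 (0.56) were called higher and PYK10 (-0.41) lower, with list means of 7.84 and 7.63 in the dark and 8.15 and 7.84 in the light. None of the 3 was called with the array spread as a covariate (adjusted p = 0.528, 0.859 and 0.406), and PYK10 was not called with scaling to reference genes (-0.15, adjusted p = 0.271). EXPA7 and EXPA18 were not called without the second dark array or without the first lit one, nor PYK10 without the second lit one. Of 2 measured guard cell and stomatal genes, of 7, MUTE was called higher (0.42) and FMA was not called (-0.31). CLV3, the 1 measured of 7 shoot meristem genes, was called higher (0.44). Neither MUTE nor CLV3 was called with the array spread as a covariate (adjusted p = 0.639 and 0.573). Of 2 measured pollen genes, of 6, 0 were called. The vascular and epidermal lists had 0 measured members. The part of these tissues in the results was not tested, and in whole seedlings fewer cells of a type and less RNA per cell cannot be told apart.

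Among the 15 largest named rises, STZ, which encodes a stress-related zinc-finger protein, read 6.04 and 6.27 on the dark arrays and 8.8 and 9.19 on the 30 min arrays (2.84 ± 0.21, adjusted p = 9.23e-09). The named rises and falls were picked with no overlap between dark and lit flu arrays, so that separation is no added evidence. STZ also rose in wt (3.55), and the difference between the responses of flu and wt was not called (-0.71 ± 0.29, adjusted p = 0.0815). PUB19, a U-box ubiquitin ligase, read 6.99 and 7.33 in the dark and 9.8 and 9.98 in the light (2.73 ± 0.22, adjusted p = 2.77e-08), and its change was 2.58 in wt, 2.19 in fc2 and 2.53 in fc1. AT4G27280 went from 8.98 and 9.01 to 11.66 and 11.83 (2.75 ± 0.17), with 2.37 in wt. These genes rose in flu and in wt.

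For 5 of the named rises the response in flu exceeded that in wt, and for 3 of these it was not called different from that in fc1. AT2G18210 read 6.26 and 6.33 in the dark and 8.19 and 8.54 in the light (2.07 ± 0.14, adjusted p = 3.9e-09), while in wt it read 6.65 and 6.83, then 6.53 and 6.39. The flu response exceeded that of wt by 2.35 ± 0.2 (adjusted p = 2.7e-07). In fc1 its change was 1.5, smaller than in flu (adjusted p = 0.0333). AT1G20823 rose by 2.14 ± 0.12 in flu and by 0.96 in wt, a difference of 1.18 ± 0.17 (adjusted p = 6.94e-05), and its change was 1.78 in fc1 (adjusted p = 0.123 for the difference). AT5G19240 rose by 2.75 ± 0.19 in flu and by 1.69 in wt, a difference of 1.06 ± 0.27 (adjusted p = 0.00744), and its change was 2.46 in fc1 (adjusted p = 0.461). AT5G35735 exceeded wt by 0.8 and changed by 1.76 in fc1 (adjusted p = 0.221). AT2G34700 exceeded wt by 1.71 and had a value of -0.16 in fc1, from which flu differed (adjusted p = 2.67e-06).

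For 3 of the 15 named rises the error was larger. AT1G27461 (2.69 ± 0.56), PDF2.1, named for a plant defensin (2.13 ± 0.63), and AT1G27990 (2.11 ± 0.54) varied within the flu group at 120 min, where AT1G27461 read 8.76 and 6.49. The seed maturation mean of those arrays was 9.615 and 7.607. That mean also differed between replicates elsewhere, at 8.835 and 5.572 in fc1 after 30 min and 5.498 and 7.882 in wt after 120 min. It was close in dark fc2 (5.84 and 5.845). With that mean as a covariate the changes at 30 min were 2.42, 1.89 and 1.85 and remained called. With the array spread as a covariate PDF2.1 (1.72, adjusted p = 0.166) and AT1G27990 (1.55, adjusted p = 0.137) were not called, and PDF2.1 was not called without the second dark array (1.86, adjusted p = 0.0751). The remaining named rises were AT2G22880, AT1G54050, AR781 and AT1G05575, at 2.17 to 2.23.

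The largest named fall was that of AT3G05730, which read 9.53 and 9.15 in the dark and 4.22 and 4.06 after 30 min (-5.2 ± 0.36, adjusted p = 5.11e-09). The lit values lay among the dimmer probe sets, where bin 3 of 10 spans mean levels of 3.74 to 4.382, so the size of the fall is uncertain. In wt it read 9.56 and 9.89, then 9.07 and 9.38, and the difference between the responses was -4.7 ± 0.51 (adjusted p = 3.49e-06). Its change was -2.76 in fc2 and -0.9 in fc1, both smaller falls than in flu (adjusted p = 0.00156 and 5.61e-06 for the differences).

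AT5G44440, among the brighter probe sets in the dark at 11.57 and 11.69, read 7.9 and 7.36 after 30 min (-4 ± 0.15, adjusted p = 6.57e-12), a 16-fold fall. It read 11.68 and 11.91 in lit wt, so that lit flu and lit wt did not overlap. AT5G55620 fell by 3.5 on the log2 scale and AT1G15260 by 3.13, where wt gave 0.47 and -0.11. Falls shared with wt were those of AT3G53250, the small auxin-upregulated RNA SAUR57 (-2.84 in flu and -2.5 in wt), and of AT5G62280 in the auxin list (-3.22 and -2.21). For neither was the difference between flu and wt called (adjusted p = 0.408 and 0.121). XTH32, a xyloglucan endotransglucosylase/hydrolase of the cell wall, and TROL, a thylakoid rhodanese-like protein, were also among the 15. The other named falls were AT1G68780, AT1G49750, AT3G23760, AT4G22490, AT1G62780, AT1G33170 and AT5G20740, at -2.78 to -2.47.

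**Figure D2:**
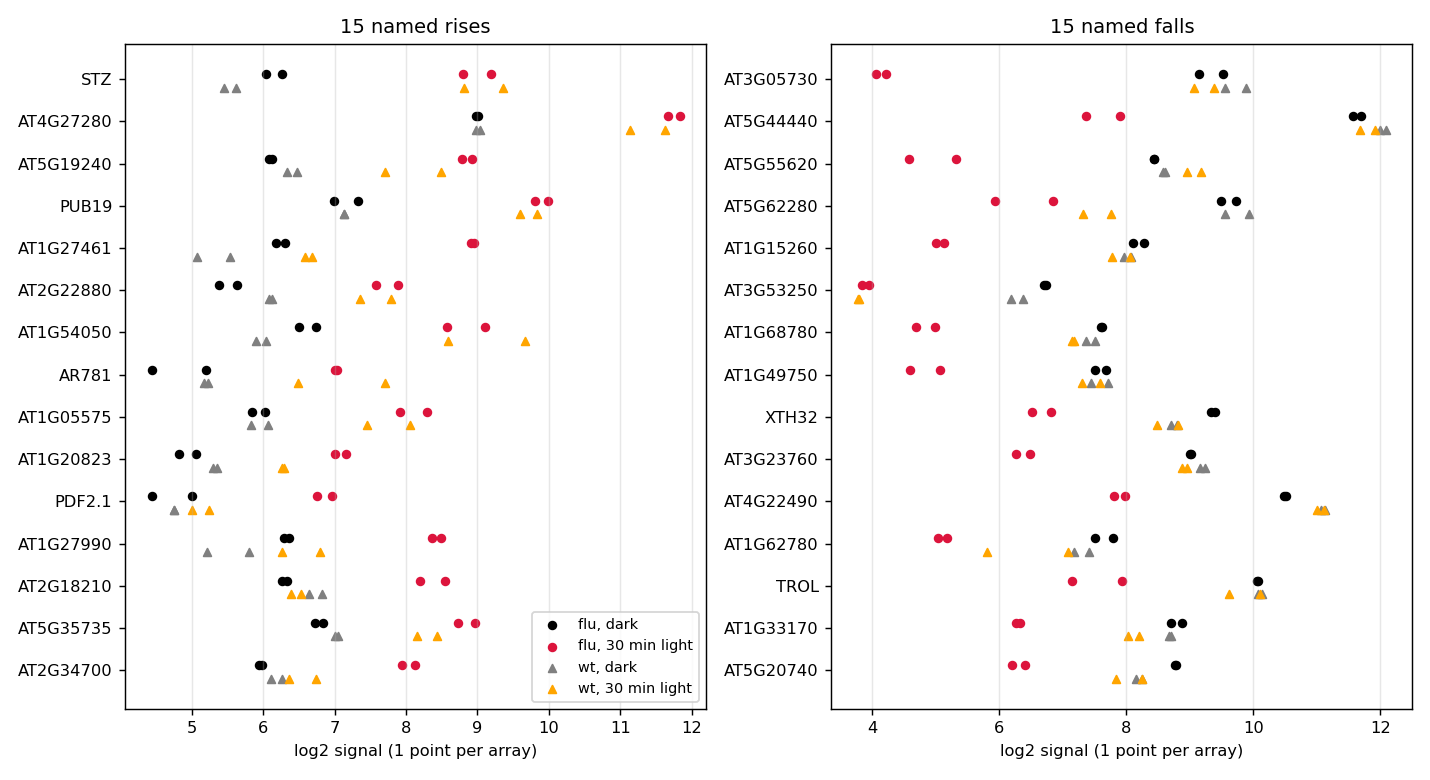
Log2 signal (x axis) on each array for the 15 named rises (left) and 15 named falls (right), with 1 point per array for flu (circles) and wt (triangles) in the dark and after 30 min of light. STZ rises in both genotypes, and AT3G05730 reads 4.22 and 4.06 in lit flu against 9.07 and 9.38 in lit wt.

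These genes and the list members below were picked among the 13171 probe sets with exactly 1 listed gene, so a list can lack members of its family. Of the probe sets with none or several, 43 rose at least as much as the last of the named rises and 26 fell at least as much as the last of the named falls, with extremes of 3.95 and -3.94. Both lit arrays lay above both dark ones for 8200 probe sets (36.9%) and below them for 7018 (31.6%). Counts of list members that rose or fell are read against 24.2% of all probe sets called higher and 23.8% called lower.

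Genes of photosynthesis moved mostly downwards. All 6 measured photosystem and electron transport genes fell, with a median change of -0.93 against 0.06 over all probe sets. TROL, which anchors ferredoxin reductase to the thylakoid, read 10.06 and 10.08 in the dark and 7.93 and 7.14 in the light (-2.54 ± 0.22, adjusted p = 6.89e-08). PSBY, a small protein of photosystem II, fell from 11.84 and 11.88 to 10.89 and 10.49 (-1.17 ± 0.15). Both genes fell more than in wt (differences of -2.3 and -1.41, adjusted p = 3.18e-05 and 8.53e-05). PGRL1B (-1.09), PSAN (-0.78), PSAE-1 (-0.59) and PSBW (-0.39) had smaller values. With the array spread as a covariate 3 of the 6 were called lower, and with scaling to reference genes 4.

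All 3 measured Calvin cycle genes fell, and each fell more than in wt. PRK, the phosphoribulokinase that makes the acceptor of carbon dioxide, read 11.54 and 11.64, then 9.77 and 9.64 (-1.89 ± 0.17, adjusted p = 1.1e-07). SBPASE, a bisphosphatase of the cycle, changed by -1.36 ± 0.16 and RCA, which activates Rubisco, by -0.79 ± 0.1. In wt the 3 values were -0.13, -0.09 and 0.19. Of the minor light-harvesting proteins of photosystem II, LHCB4.1 (-1.14 ± 0.12) and LHCB4.2 (-1.11 ± 0.18) fell. LHCB4.3 read 6.99 and 7.25, then 7.92 and 7.85, and rose as in wt (0.77 in flu and 0.75 in wt), so the members of this small family moved in opposite directions.

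Enzymes of tetrapyrrole synthesis fell together, 9 of 11, with a median change of -1.17, while 1 rose and 1 was not called. The same 9 fell more than in wt (14% of all probe sets had a lower response than in wt), where 0 of the 11 were called by limma and 2 were lower at an unadjusted p under 0.05. HEME1, a uroporphyrinogen decarboxylase, read 9.64 and 9.53 in the dark and 8.02 and 7.57 in the light (-1.79 ± 0.14, adjusted p = 1.78e-08). HEME2, of the same activity, changed by -1.57 ± 0.13. AT1G74470, the geranylgeranyl reductase that supplies the phytol tail of chlorophyll, read 13.55 and 13.54, then 12.13 and 11.77 (-1.6 ± 0.11). On the chlorophyll branch CHLI2, a magnesium chelatase subunit, changed by -1.43 ± 0.14 and CHLM, the magnesium protoporphyrin methyltransferase, by -1.17 ± 0.08. At the start of the pathway GSA1, which makes 5-aminolevulinic acid, changed by -0.9 ± 0.1.

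PORB, the enzyme that reduces protochlorophyllide in the light, read 12.84 and 12.83 in the dark and 11.89 and 11.38 after 30 min (-1.2 ± 0.13, adjusted p = 1.06e-06). It changed by -0.3 in wt (adjusted p = 0.269), and the responses differed by -0.91 ± 0.19 (adjusted p = 0.00146). HEMB1 (-0.79) and HEMA2 (-0.68) also fell. HEMA3, a dim probe set at 3.41 and 3.15 in the dark, rose by 0.45 ± 0.13, and SIRB, of the sirohaem branch, had a value of -0.01.

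Of 2 light signalling genes 1, HYH, and of 6 flavonoid genes 3 had a lower light response in flu than in wt (14% of all probe sets did). HYH, a bZIP transcription factor related to HY5 that promotes photomorphogenesis, read 7.62 and 7.83, then 6.16 and 5.71 (-1.79 ± 0.2, adjusted p = 9.14e-07). Its value was 0.34 in wt and 1.06 in fc1, and flu differed from wt by -2.13 (adjusted p = 2.29e-05). FHL, the other light signalling gene, was not called (-0.44, adjusted p = 0.159). The clock gene GI rose in flu by 0.77 ± 0.11, less than in wt (1.43, adjusted p = 0.00327 for the difference). Of 6 flavonoid genes 3 fell, namely UGT78D1 (-1.45), CHIL (-1.39) and UGT78D2 (-1.28). CHIL, a chalcone isomerase-like protein, and UGT78D2, a flavonol glucosyltransferase, rose in wt by 0.61 and 1.69. With scaling to reference genes the median of this list stayed negative at -0.38, and 2 of its members were then called higher.

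UGT78D2 was one of several genes with opposite calls in flu and wt. It read 7.44 and 7.33 in dark flu and 6.04 and 6.17 after 30 min, against 6.71 and 6.95, then 8.29 and 8.75, in wt. AT1G64500 fell in flu from 7.47 and 7.8 to 5.09 and 5.52 and rose in wt from 7.78 and 7.78 to 9.43 and 9.8, a difference of -4.17 ± 0.23 (adjusted p = 2.52e-09). AT1G13930 fell by 2.03 in flu and rose by 0.67 in wt. After 120 min in flu, UGT78D2 read 8.41 and 8.65 and AT1G13930 read 10.3 and 10.32, above their dark arrays (10.17 and 10.19 for AT1G13930), so the 30 min levels were lower than both neighbours in time. AT3G21670, the transporter NPF6.4, fell by 2.14 in flu and rose by 1.16 in wt, but its dark level also differed, at 8.84 and 8.64 in flu and 6.56 and 6.92 in wt.

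Over all probe sets, 793 rose in wt (3.57%), and of these 449 also rose in flu (56.62%, against 24.2% of all probe sets), 143 fell (18.03%) and 201 were not called. Of the 632 that fell in wt (2.84%), 350 fell in flu (55.38%, against 23.8% of all probe sets), 76 rose (12.03%) and 206 were not called. The shared rises were 8.34% of the flu rises and the shared falls 6.61% of the flu falls. For fc2, 316 of 427 rises (1.92%) were shared and 25 were opposite, as were 146 and 24 of 245 falls (1.1%). For fc1, 434 of 817 rises (3.68%) were shared and 184 were opposite, while of 788 falls (3.55%) 341 were shared (43.27%) and 197 were opposite (25%). No arrays are shared between these comparisons.

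The light response of flu differed from that of wt at 6201 probe sets (27.9%), from that of fc2 at 6344 (28.6%) and from that of fc1 at 7189 (32.4%). Of the 5384 flu rises, 2056 (38.19%) differed from all 3 other genotypes by this test, and of the 5293 falls 2426 (45.83%). Among changes of at least 2-fold these were 591 of 844 rises and 1243 of 1505 falls. The 3 differences share the flu arrays, and the flu rises and falls were called on those same arrays. High shares therefore follow in part from that selection, more so among changes of at least 2-fold. The share of all probe sets with all 3 differences called was not computed.

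**Figure D3:**
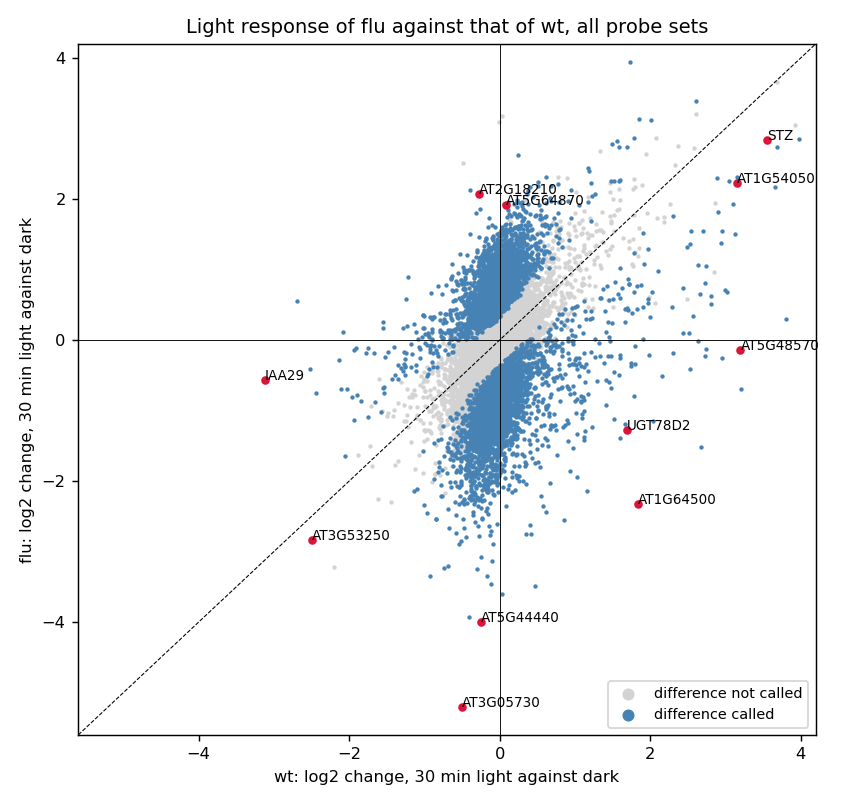
Log2 change after 30 min of light in wt (x axis) and flu (y axis), 1 point per probe set, blue where the difference between the responses was called. The dashed line marks equal change; STZ and AT3G53250 lie near it, while IAA29, AT1G64500 and AT3G05730 lie far from it.

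The singlet oxygen list held genes used as markers, together with EX1, which encodes a mediator of the response. Of 7 measured, 4 rose, 1 fell and 2 were not called, while in wt 4 of the 7 rose. The 1 fall was that of EX1. AT5G64870 read 5.77 and 5.76 in the dark and 7.78 and 7.58 in the light (1.92 ± 0.14, adjusted p = 1.05e-08), with no overlap. Its change was 0.08 in wt and 0.06 in fc2, from both of which flu differed (adjusted p = 3.67e-06 and 5.29e-06). In fc1 it was 1.82, and the difference from flu was not called (adjusted p = 0.755). AT3G10930 rose by 1.29 ± 0.21 and AT5G52750 by 0.69 ± 0.16, with 1.47 and 0.81 in wt. AT5G52750 was not called with the array spread as a covariate (0.59, adjusted p = 0.0673). EX1, which encodes EXECUTER1, read 8.39 and 8.39, then 7.98 and 7.9 (-0.45 ± 0.12, adjusted p = 0.00645), and was not called with the array spread as a covariate or with scaling to reference genes. AT3G28580 stayed between 2.64 and 2.74 on all 4 arrays, among the dimmest probe sets.

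Redox enzymes split evenly, with 11 of 27 higher and 11 lower (24.2% and 23.8% of all probe sets were). Plastid enzymes were among the falls, namely the thioredoxin TRXF2 (-1.28 ± 0.12) and the thylakoid ascorbate peroxidase TAPX (-0.98 ± 0.11). The methionine sulfoxide reductase MSRB5 read 8.79 and 8.83, then 10.03 and 10 (1.21 ± 0.14), with -0.18 in wt. NDB2, an alternative NAD(P)H dehydrogenase of mitochondria, rose by 0.92 ± 0.11. Of 14 glutathione transferases 6 rose and 4 fell (24.2% and 23.8% of all probe sets did). GSTU25 (1.27) and GSTU22 (1.22) were highest and GSTL3 (-1.66) lowest. Of 52 UDP-glycosyltransferases 14 rose and 10 fell, near the shares of all probe sets (24.2% and 23.8%). UGT71C1 rose by 1.63 ± 0.15. With scaling to reference genes 26 of the 52 were called higher and 6 lower.

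The defence list held 17 genes, most of them U-box or ATL ubiquitin ligases taken by family name. Of these 9 rose and 0 fell, where 24.2% of all probe sets rose. Their median was 0.43, and 15 were higher with scaling to reference genes. PUB24, a U-box ligase that restrains immune signalling, read 4.33 and 3.66, then 6.03 and 5.87 (1.96 ± 0.19, adjusted p = 3.08e-07), and exceeded wt by 1.17. Its close relative PUB23 rose by 0.92 ± 0.18. Of 7 WRKY factors 3 rose, 2 fell and 2 were not called. WRKY53, a regulator of senescence and defence, read 3.51 and 3.4, then 5.27 and 5.21 (1.79 ± 0.19), with 0.41 in wt and 2.01 in fc1. Its dark values lay near the medians of the dimmest 20% of probe sets on those arrays (3.34 and 3.22), so the size of its rise is uncertain. WRKY6 rose by 1.62 ± 0.15 and WRKY47 by 0.93 ± 0.17. The 2 falls were not called with the array spread as a covariate or with scaling to reference genes.

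Calcium and calmodulin-like genes rose in 4 of 9 cases (24.2% of all probe sets rose). CML42 (0.89 ± 0.11) and CML43 (0.91 ± 0.14) rose in flu, while CML43 fell in wt (-0.63). CML37 rose less than in wt (0.68 and 1.79, adjusted p = 0.00463 for the difference), and its rise in flu was not called without the second dark array (0.62, adjusted p = 0.0519).

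Of 8 heat-shock genes, 5 had a lower light response in flu than in wt (14% of all probe sets did). Within flu 3 rose, 1 fell and 4 were not called. AT1G54050 read 6.5 and 6.74, then 8.58 and 9.11 (2.23 ± 0.24), against 3.16 in wt and 4.74 in fc2. AT2G20560 (1.82 in flu and 2.9 in wt) rose in both. AT5G51440 (0.82 and 2.74) was called in both, but in flu not without the first dark array (0.52, adjusted p = 0.248), without the second lit array (0.69, adjusted p = 0.168) or with trend and robust variances (adjusted p = 0.0577). AT5G48570, an FKBP-type immunophilin, stayed at 4.46 and 4.7, then 4.48 and 4.4 in flu, while in wt it read 4.01 and 3.95, then 6.28 and 8.08. The difference was -3.34 ± 0.55 (adjusted p = 0.000203). In fc2 and fc1 it changed by 3.71 and 3.59. ATHSP22.0 fell in flu (-1 ± 0.14).

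**Figure D4:**
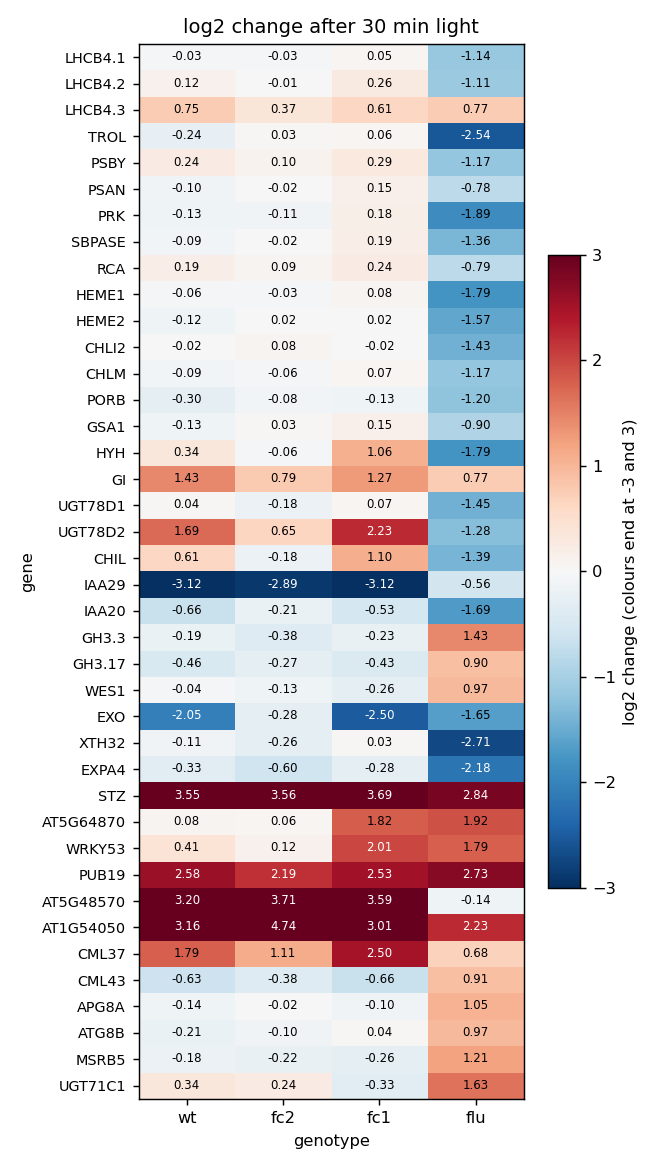
Log2 change after 30 min of light (colour and printed value) for list members named in the text (rows) in wt, fc2, fc1 and flu (columns). The plotted photosynthesis and tetrapyrrole genes, LHCB4.3 apart, have lower values in flu than in the other genotypes, while AT5G48570 and IAA29 change strongly in wt, fc2 and fc1 and by -0.14 and -0.56 in flu.

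Of 17 genes in the auxin list 5 were higher and 4 lower, near the shares of all probe sets (24.2% and 23.8%). In wt 5 of them fell and 0 rose. The list held no SAUR gene such as AT3G53250, and AT5G62280 was in it by locus, so the counts do not describe auxin genes at large. IAA29, of the Aux/IAA repressors of auxin responses, read 8.1 and 8.3 in dark flu and 7.82 and 7.46 after 30 min (-0.56 ± 0.16, adjusted p = 0.00839). In wt it dropped from 8.09 and 8.16 to 5.24 and 4.77, with no overlap between lit flu and lit wt. The responses differed by 2.56 ± 0.23 (adjusted p = 4.83e-07). The fall within flu was not called with the array spread as a covariate (-0.43) or with scaling to reference genes (-0.3). It also depended on single arrays, at -0.46 without the second dark array and -0.38 without the second lit one.

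The GH3 enzymes join auxin and related acids to amino acids. GH3.3 read 7.83 and 7.65, then 9.19 and 9.15 (1.43 ± 0.21, adjusted p = 2.21e-05), and WES1 rose by 0.97 ± 0.11 and GH3.17 by 0.9 ± 0.09. In wt their values were -0.19, -0.04 and -0.46. IAA20 fell by 1.69 in flu and by 0.66 in wt. The median of the auxin list was 0.14, and -0.09 with the array spread as a covariate.

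Cell wall genes fell in 15 of 43 cases (23.8% of all probe sets fell) and rose in 10, near the 24.2% of all probe sets. XTH32 read 9.34 and 9.4, then 6.51 and 6.82 (-2.71 ± 0.18, adjusted p = 2.89e-09), and the expansin EXPA4, which loosens walls, read 10.23 and 10.1, then 7.89 and 8.08 (-2.18 ± 0.12). Both fell more than in wt (adjusted p = 1.1e-06 and 8.44e-07). EXO, a brassinosteroid-responsive gene of growth, fell by 1.65 in flu and by 2.05 in wt. EXLA2 (-1.53) and EXPB1 (-1.11), both of expansin-related families, fell too. With the array spread as a covariate 14 were called lower and 3 higher, and with scaling to reference genes 15 lower and 19 higher.

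Autophagy genes rose in 6 of 11 cases and fell in 0, and 8 exceeded wt (13.9% of all probe sets did), where limma called 0 and 2 were lower at an unadjusted p under 0.05. APG8A, an ATG8 protein that coats the forming autophagosome, read 9.77 and 9.94, then 10.92 and 10.89 (1.05 ± 0.1, adjusted p = 1.22e-07). ATG8B (0.97 ± 0.12), ATG8D (0.65 ± 0.1), ATG8G (0.62 ± 0.12), APG8H (0.54 ± 0.09) and ATG8E (0.28 ± 0.11) were also called. ATG8E was not called with the replicate block (adjusted p = 0.0517), which left 5 of the 11, with the array spread as a covariate (adjusted p = 0.159), with only the arrays compared (adjusted p = 0.155) or without 3 of the 4 flu arrays in turn (adjusted p = 0.102 to 0.257). With scaling to reference genes 10 of the 11 were called higher. All 6 belong to the ATG8 family, whose sequences are alike, and cross-hybridisation between them was not tested.

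Of 16 SWEET sugar transporters 8 rose and 1 fell (24.2% and 23.8% of all probe sets did). SWEET17, a vacuolar fructose carrier, read 7.33 and 7.38, then 8.17 and 8.4 (0.93 ± 0.13), and SWEET1 fell from 8.37 and 8.29 to 6.24 and 6.84 (-1.79 ± 0.21). With the array spread as a covariate 3 SWEET genes were called higher and 2 lower. Among 13 abscisic acid, cold and dehydration genes, 4 rose and 6 fell, against the same shares of all probe sets. LEA4-5 (1.45 ± 0.27) and AtLEA4-1 (1.44 ± 0.23), which encode protective proteins of dry seeds, rose, and COR27 (-1.28 ± 0.18) and LTI30 (-0.95 ± 0.17), both cold-responsive, fell. The seed maturation mean given above was also higher on both lit arrays than on both dark ones, and both LEA genes were called with it as a covariate.

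Of 7 probe sets for mitochondrion-encoded genes 6 rose and 1 fell, with a median of 1.04. The respiratory chain subunits nad5 (1.56 ± 0.3) and nad6 (1.58 ± 0.35) rose and ccb382, for cytochrome c maturation, fell from 8.05 and 8.61 to 7.01 and 7.19 (-1.23 ± 0.19). A nuclear copy of the mitochondrial genome is known in this accession, and the array cannot tell the copies apart.

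**Figure D5:**
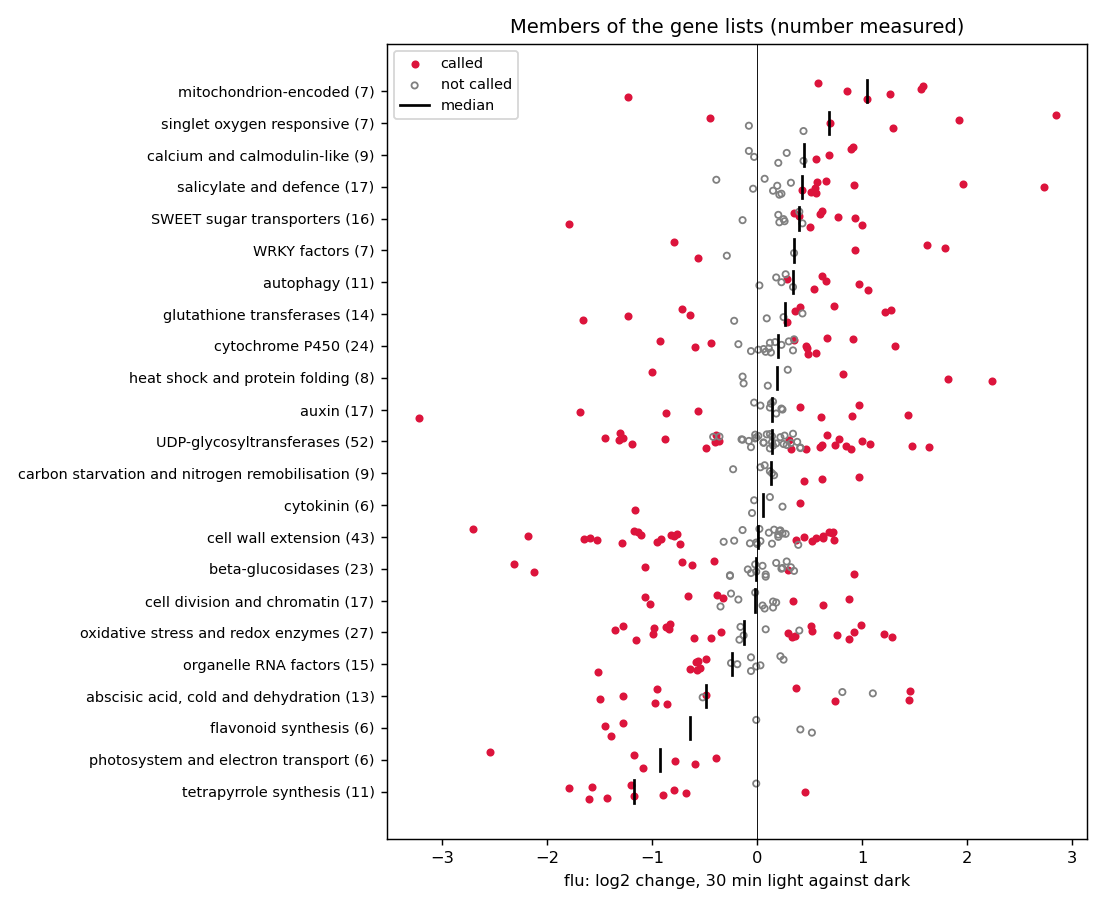
Log2 change after 30 min of light in flu (x axis) for each measured member of the gene lists with at least 6 members (y axis, number measured in brackets), red where called, with the median of the list as a bar. Tetrapyrrole synthesis has the lowest median (-1.17) and the mitochondrion-encoded genes the highest (1.04).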

How the data were processed

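Biotin-labelled cRNA of whole seedlings was hybridised to 24 arrays in 12 groups of 2, per the labels. Per the submitters' processing notes, the authors used RMA, which background-corrects, normalizes and summarises probes, and deposited the resulting log2 values. They were used as deposited. Group means over the 24 arrays were estimated with limma (version 3.58.1, in R 4.3.3) and moderated variances, with two-sided tests and Benjamini-Hochberg adjustment over 22217 probe sets within each contrast. The fit was also run on simulated arrays with independent errors and no shift in array spread, so that run does not cover such a shift. Tables and figures used Python with pandas and matplotlib.

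The platform table gave 1 gene to 13171 probe sets, several to 482 and none to 8564; TAIR10.1 served for names only. Named genes were the 15 largest rises and falls among called probe sets with 1 gene and no overlap between groups, the 10 largest differences from wt each way among probe sets also called in flu, up to 6 members of each list with the smallest p, and a few set genes. HEMB1, HEMA2, HEMA3, SIRB, AT3G28580 and AT5G48570 lie outside this rule and were named after their values were seen. Members and lists were chosen with earlier results of these data known. The arrays were not treated as paired by replicate number. Deviations of same-numbered flu arrays in the dark and at 30 min correlated at -0.2336. The value was 0.3176 in wt, -0.0402 in fc2 and -0.0499 in fc1. With 2 arrays per group these values do not settle whether the numbers mark a shared batch. Alternatives were other scalings, a filter on the dimmest 40% of probe sets, other variance models, the replicate block, array spread or seed maturation as covariates, fewer arrays and a 2-fold minimum. Promoter and protein sequences were not analysed here.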

Additional observations from a re-analysis of the deposited data

Results flagged for a closer look

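The difference between the light responses of flu and another genotype was tested directly, and each result here passed that test (limma, adjusted p under 0.05). It was called at 6201 probe sets against wt, 6344 against fc2 and 7189 against fc1. Among named genes, flu exceeded wt at IAA29 (2.56), AT2G18210 (2.35), the pseudogene AT3G48370 (2.12), AT5G64870 (1.84), TRI (1.76), AT4G16750 (1.75), AT1G24140 (1.75), AT5G12880 (1.74), AT1G74010 (1.73) and AT2G34700 (1.71), in log2 units. Flu lay below wt at AT3G05730 (-4.7), AT1G64500 (-4.17), AT5G55620 (-3.97), AT5G44440 (-3.76), AT3G21670 (-3.3), AT1G27480 (-3.06), AT1G15260 (-3.03), UGT78D2 (-2.97), AT1G13930 (-2.7) and AT1G49750 (-2.64). For AT1G24140 the rise in fc1 (1.9) was close to that in flu (1.93), and the difference between them was not called (adjusted p = 0.931). With 2 arrays per group, outlying arrays could not be tested.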

How the results depend on the processing

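The count for flu at 30 min against dark moved from 10677 to 6204 with the array spread as a covariate, and to 2349 where a 2-fold change was also required. The differences from wt moved from 6201 to 9483 with scaling to reference genes (82.84% higher, against 49.73%) and to 1930 at 2-fold. Those from fc2 moved from 6344 to 4084 with the array spread and 1919 at 2-fold, and those from fc1 from 7189 to 2517 at 2-fold. The cause was not tested, except that a 2-fold minimum removes calls by construction. With scaling to reference genes the share of higher calls also moved from 47.07% to 80.56% against fc2 and from 49.31% to 67.81% against fc1. Leaving out 1 array at a time gave 7945 to 10265 calls in flu, 4499 to 6646 against wt, 4627 to 6776 against fc2 and 5681 to 7560 against fc1. With the replicate number as a block the 4 counts were 10518, 5998, 6136 and 7017. With a block that set only the second dark and first lit flu arrays apart, an alternative chosen after seeing the data, 11003 were called. With only the arrays of the groups compared, flu had 7563 calls. ZAP1, a WRKY factor at -0.79 in flu, had a value of 0.17 with the array spread as a covariate (adjusted p = 0.661). With that covariate 40 further results for named genes lost their call and 2 gained one. Of the 30 largest named rises and falls, those of PDF2.1 and AT1G27990 alone lost a call under any alternative run. The 20 named differences from wt kept theirs in every alternative run. The number of arrays limits the precision, and dim probe sets such as AT3G28580 bound what could be seen.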

Other observations

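Counts in flu at 30 min for lists not described above are read against 24.2% of all probe sets called higher and 23.8% called lower. Of 15 organelle RNA factors, which process and edit plastid and mitochondrial transcripts, 7 fell and 0 rose, but 2 were called lower with the array spread as a covariate and 1 with scaling to reference genes. Of 24 cytochrome P450 genes 8 rose and 3 fell. CYP71B29 read 7.25 and 7.35 in the dark and 8.52 and 8.69 in the light (1.31 ± 0.12), with -0.13 in wt. With the array spread as a covariate 2 P450 genes were called higher and 2 lower. Of 23 genes in the beta-glucosidase list, which also held the beta-galactosidase gene BGAL16, 6 fell and 2 rose. With scaling to reference genes 3 were lower and 10 higher. ASPGB1, an asparaginase, rose by 0.97, one of 3 rises among 9 genes of carbon starvation and nitrogen remobilisation. Of 17 cell division and chromatin genes 3 rose and 5 fell. The falls of the cell division and beta-glucosidase lists lie near the share of all probe sets. None of 3 measured jasmonate genes passed the limma test in flu, and 0 had an unadjusted p under 0.05.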
